A study of Mus musculus with 15 samples.

Results

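Unannotated long noncoding RNAs of mouse liver were followed across the 5 groups of a study of the liver carcinogen DEN (diethylnitrosamine) and inherited high-fat feeding. They are the transcripts that the authors assembled from their own reads, found in no gene annotation, and classed as long noncoding RNA. The deposited table lists 357 of them, and the 237 with at least 0.5 FPKM in at least 2 of the 10 long RNA libraries are described here, so the members were chosen by their level in these libraries. FPKM is the number of sequenced fragments over a transcript's length in kilobases, set relative to all mapped fragments. The same threshold kept 961 of 1254 annotated long noncoding RNAs and 295 of 419 transcripts of uncertain coding potential. Of the 237 members, 195 were classed by the authors as lincRNA (lying between genes) and 42 as antisense (lying opposite a gene). They carry a transcript number and a locus number, with no gene symbol, position or sequence in the sources used here.

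All animals were wild-type male C57BL/6 mice whose livers were taken at 40 weeks of age. H1D, H2D and H3D mice were injected with DEN at 2 weeks and fed a high-fat diet in which fat supplied 60% of the calories. They were sons of the F0, F1 and F2 generation, in that order. In the high-fat line of H1D, H2D and H3D, the F0 females had been given the same diet from 1 to 3 months of age before mating with chow-fed males. NCD mice, sons of the F0 generation, received DEN at the same age and ate normal chow. Nor mice, also sons of the F0 generation, received PBS and ate normal chow. Between H1D, H2D or H3D and NCD the animal's diet and its ancestry both change, and cannot be told apart, while H1D, H2D and H3D all ate the same diet. RNA of 4 to 8 mice per group was combined into 2 pools, so every group has 2 libraries. P-values therefore measure variation between pools, not between mice.

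Long noncoding RNAs are transcripts with no recognised protein product. As background, many are expressed at low levels and in few tissues or states, and some act in the nucleus on the chromatin near their own gene while others act as scaffolds or bind microRNAs. In liver, annotated examples such as H19 are abundant in the fetus, silent in the adult and expressed again in liver tumours. The annotated H19 transcript was read at 84.1 and 38.6 FPKM in the H1D pools, 75.9 and 93.0 in H2D, 71.2 and 38.0 in H3D, and 46.6 and 19.7 in NCD, against 0.0177 and 0.0541 in Nor. No function is given for any of the 237 members. The tissue label held against its markers: 7 of 7 hepatocyte markers were found in the mRNA table, and their summed level was 48798 FPKM or more in each library.

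The members were present at low levels. Their mean over the 10 libraries had a median of 0.520 FPKM, with quartiles of 0.362 and 0.916 FPKM. The median was 0.917 FPKM for annotated long noncoding RNAs, 0.604 FPKM for transcripts of uncertain coding potential and 2.59 FPKM for the 22138 mRNA transcripts past the same threshold. A mean of at least 1 FPKM was reached by 55 members (23.2%), against 46.0% of the annotated long noncoding RNAs, and a mean of at least 5 FPKM by 7 members (2.95%), against 13.8%. The threshold chose the members on these same values, so the levels are a description.

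**Figure D1:**
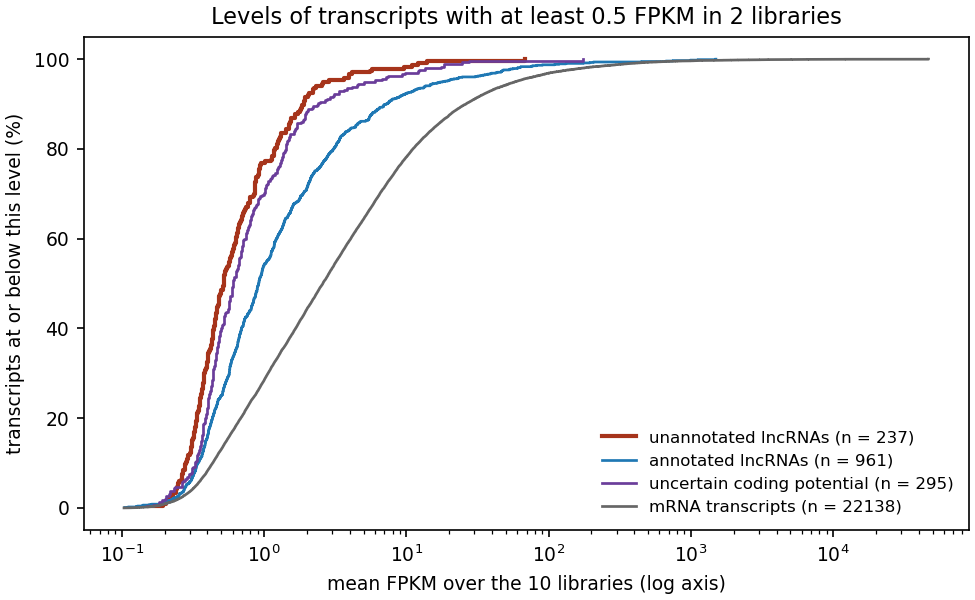
Cumulative share of transcripts (y axis, %) at or below each mean FPKM over the 10 libraries (x axis, log scale), for the transcripts with at least 0.5 FPKM in 2 libraries. The curve of the 237 unannotated lncRNAs lies to the left, with a median of 0.520 FPKM against 0.917 FPKM for annotated lncRNAs and 2.59 FPKM for mRNA transcripts.

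Few fragments stood behind some of these values. Of 117 members that are the sole transcript of their locus, 39 had low values at whole multiples of 1 fixed step, within 0.1. That step was taken as the worth of 1 fragment, and larger values were not always whole multiples. In those 39, 0.5 FPKM corresponded to a median of 9.38 fragments in H2D pool 1, with a range of 1.22 to 31.3. The other members are not covered by these figures. LNC_000058 was an extreme case, since its 4.22 FPKM in H2D pool 2 came to about 10.9 fragments. The same steps gave the relative depth of the libraries. Set against H2D pool 1, it was 0.884 and 0.930 in H1D, 1.06 in H2D pool 2, 0.912 and 0.971 in H3D and 0.904 and 0.848 in NCD, against 0.786 and 0.772 in Nor, the shallowest pair.

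In a single library between 108 and 133 of the 237 members reached 0.5 FPKM, and 31 members did so in all 10. Another 57 reached it in exactly 2 libraries. For 16 members those libraries belonged to 1 group: 7 to H3D, 6 to Nor, and 1 each to H1D, H2D and NCD. Such a member entered through the group in which it is high and had to differ, so counts of calls are also given without these 16. Values of exactly 0 were more frequent in the Nor pools. Between 2 and 11 members were listed at 0 in each of the 8 libraries of DEN-treated mice, against 37 and 34 in the Nor pools, and 24 members had 0 in each of the Nor pools. The shallower depth of the Nor pools moves with that count, and its part in it was not tested. The rule for membership also favours zeros in Nor, since 8 of the 10 libraries are of DEN-treated mice. Of the members, 87 reached 0.5 FPKM only in those libraries. The count of zeros is therefore a description, and the share over all noncoding transcripts is not given here.

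The summed level of the members was 313 and 299 FPKM in H1D, 292 and 279 in H2D, 270 and 282 in H3D and 331 and 321 in NCD, against 305 and 324 in Nor. A single transcript, LNC_000206, held 31.8% and 32.0% of that sum in H1D, 23.7% and 20.2% in H2D, 36.4% and 33.3% in H3D and 24.7% and 22.6% in NCD, against 2.15% and 1.76% in Nor. Without it, the remaining sum was 213 and 203 FPKM in H1D, 223 and 223 in H2D, 172 and 188 in H3D and 249 and 249 in NCD, against 299 and 319 in Nor. The groups of this remaining sum did not overlap between Nor, NCD and the high-fat groups. The summed FPKM of all mRNA transcripts ran in the same order, also with no overlap. It was 784456 and 772100 in Nor, 676268 and 660821 in NCD, and 568823 to 628484 in the high-fat pools. The order of the remaining sum is therefore not particular to the members, and the part of this scale in it was not tested. The members together made up 0.0385% to 0.0489% of the FPKM of all transcripts past the threshold.

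**Figure D2:**
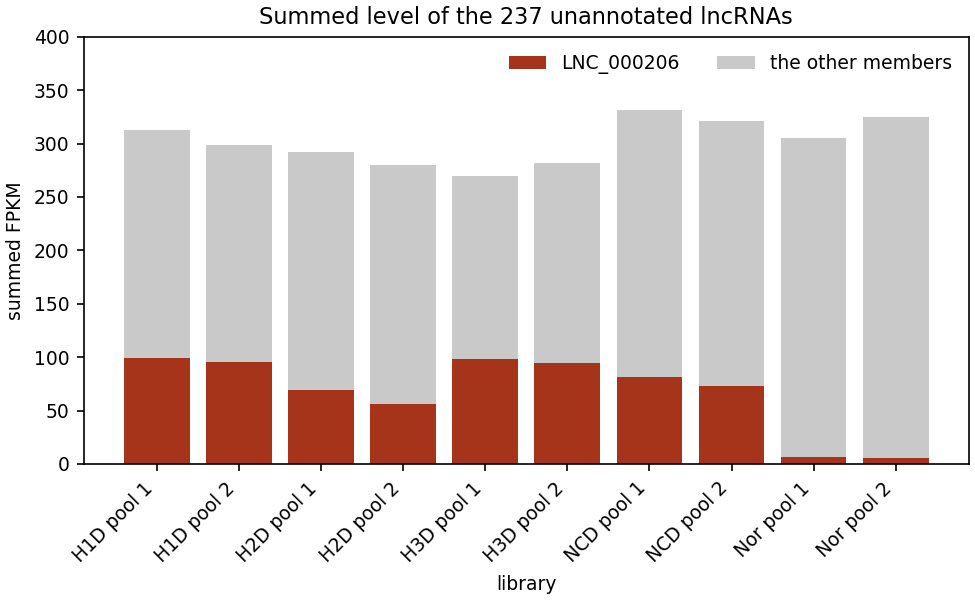
Summed FPKM (y axis) of the 237 unannotated lncRNAs in each of the 10 libraries (x axis), split into LNC_000206 (dark) and the other members (grey). LNC_000206 holds 1.76% and 2.15% of the sum in the Nor pools and 20.2% or more in each other library.

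LNC_000206 (locus XLOC_018999, a lincRNA alone in its locus) was the most abundant member in the libraries of DEN-treated mice. It was read at 99.5 and 95.5 FPKM in H1D, 69.4 and 56.5 in H2D, 98.1 and 94.1 in H3D and 81.8 and 72.7 in NCD, against 6.58 and 5.73 in Nor. The 8 pools of DEN-treated mice were all above both Nor pools, and the H2D pools were the lowest of the 8. LNC_000092 (XLOC_008541, lincRNA, alone in its locus) ran the other way, with 7.18 and 12.1 FPKM in H1D, 11.5 and 9.30 in H2D, 4.51 and 4.64 in H3D and 15.2 and 15.1 in NCD, against 33.7 and 26.8 in Nor. Its H3D pools were the lowest and its Nor pools the highest, with no overlap.

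LNC_000238 (XLOC_023307) was the most abundant antisense member. It was read at 3.86 and 4.91 FPKM in H1D, 5.12 and 3.63 in H2D, 0.885 and 1.47 in H3D and 13.6 and 11.2 in NCD, against 31.1 and 20.3 in Nor. The values fell into non-overlapping steps of Nor, NCD, then H1D and H2D together, then H3D. Use of strand in the counting is not stated, so reads of an antisense member cannot be told apart from those of the gene opposite, which the files do not name.

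The other 3 of the 6 most abundant members differed less between groups. LNC_000160 (XLOC_014834, lincRNA) had 12.1 and 8.22 FPKM in H1D, 7.34 and 6.62 in H2D, 7.95 and 6.47 in H3D and 15.0 and 14.1 in NCD, against 18.3 and 13.2 in Nor, so that all 6 high-fat pools lay below the other 4. LNC_000064 (XLOC_004781, lincRNA) had 4.10 and 5.95 FPKM in H1D, 5.16 and 6.11 in H2D, 5.44 and 2.53 in H3D and 4.46 and 5.49 in NCD, against 10.8 and 7.62 in Nor. LNC_000105 (XLOC_010408, lincRNA) had 9.67 and 11.2 FPKM in H1D, 14.0 and 13.2 in H2D, 10.3 and 14.4 in H3D and 11.02 and 11.70 in NCD, against 4.11 and 20.2 in Nor, whose own pools lay outside the range of all the others on both sides.

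**Figure D3:**
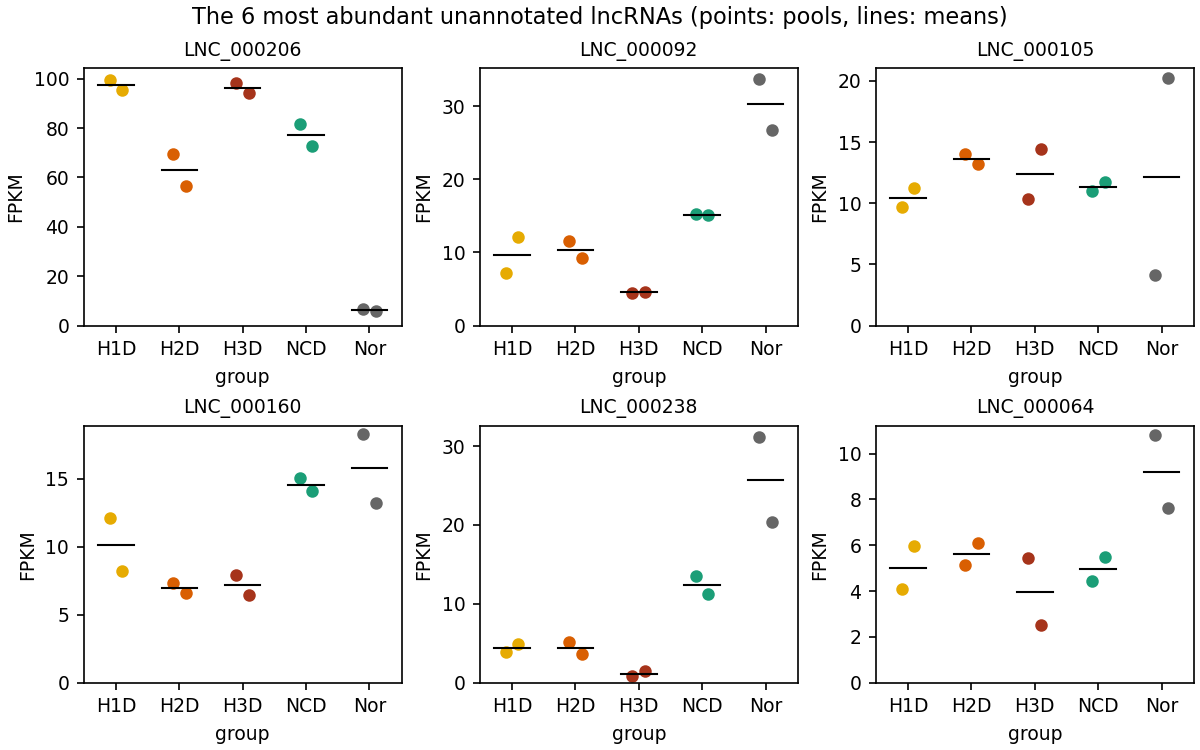
FPKM (y axes, from 0) of the 6 unannotated lncRNAs with the highest mean, by group (x axes); points are pools and lines the means of 2 pools. LNC_000206 is low in Nor (6.58 and 5.73 FPKM), LNC_000092 and LNC_000238 are highest in Nor and lowest in H3D, and the Nor pools of LNC_000105 lie at 4.11 and 20.2 FPKM.

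Whether a member differed anywhere among the 5 groups was tested with limma's moderated F test on log2(FPKM + 0.5), fitted on all 1493 noncoding transcripts past the threshold. Of the 237 members, 41 passed an adjusted p (Benjamini-Hochberg) of 0.05, or 17.3%, beside 13.9% of all noncoding transcripts tested. The share was 10.3% for annotated long noncoding RNAs and 22.7% for transcripts of uncertain coding potential. Without the 16 members that entered through 1 group, 39 of 221 passed. The test does not say which groups differ. By group means, 21 of the 41 were ordered Nor above NCD above H3D (51.2%, beside 50.2% of the 207 noncoding transcripts that passed), 12 the other way (29.3%, beside 32.9%), and 8 in neither order. All 8 pools of DEN-treated mice were below both Nor pools in 16 of the 41 (39.0%, beside 43.0% of the 207) and above them in 12 (29.3%, beside 33.8%). The 4 members with the smallest p were LNC_000206 (adjusted p = 3.95e-05), LNC_000238 (adjusted p = 0.00114), LNC_000195 (adjusted p = 0.00445) and LNC_000092 (adjusted p = 0.00499). Leaving out a pool gave 21 to 39 calls, with 21 without NCD replicate 1, NCD replicate 2 or H2D replicate 2 and 22 to 27 without H2D replicate 1, either H3D replicate or either Nor replicate, and 11 of the 41 passed in all 10 such fits.

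**Figure D4:**
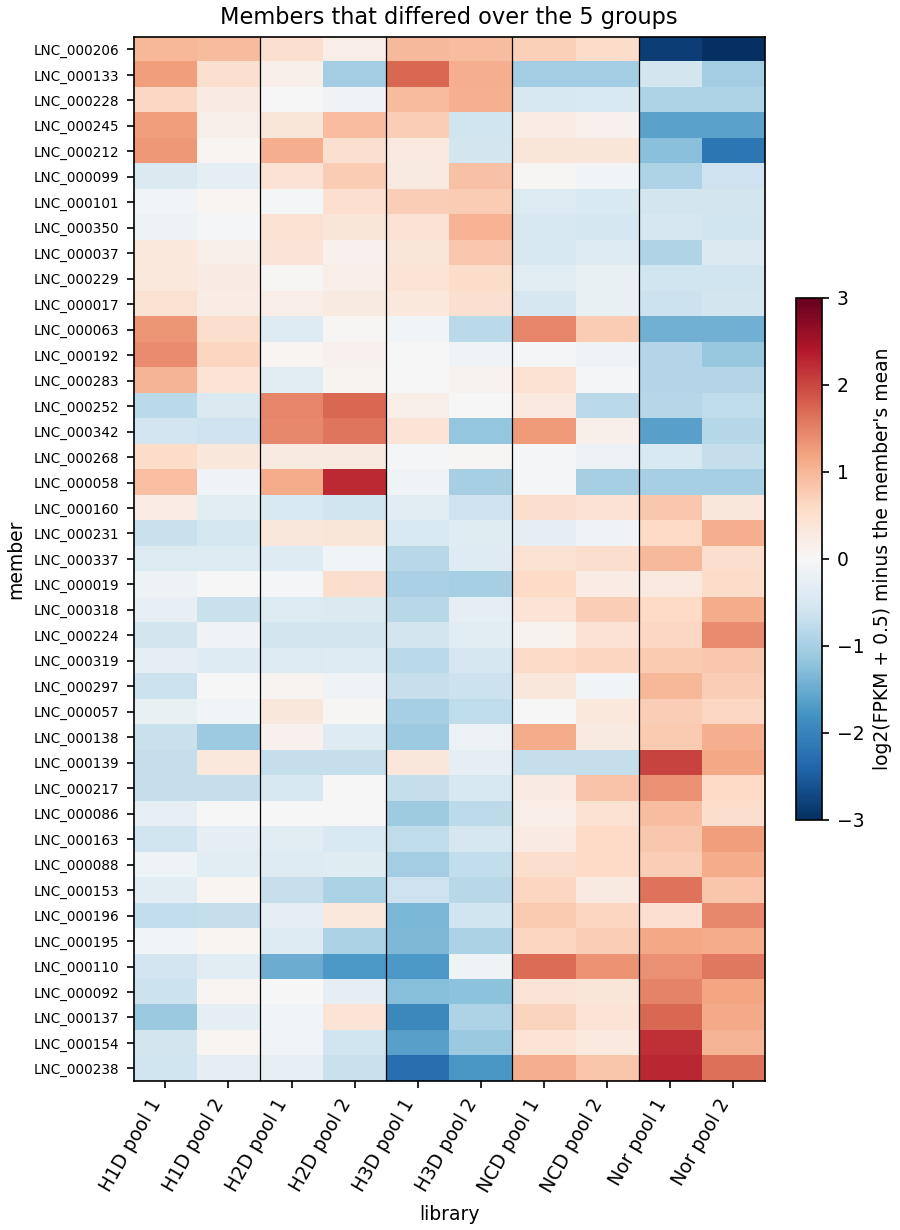
The 41 members that passed the 5-group test (rows, ordered by the difference between Nor and H3D) in the 10 libraries (columns, 2 pools per group). Colour is log2(FPKM + 0.5) minus the member's own mean; red is above and blue below it, and members low in Nor stand at the top and members high in Nor at the bottom.

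Over all 237 members the libraries were spread along 1 main axis. The first principal component of log2(FPKM + 0.5) explained 45.7% of the variance, and 13.0% lay on the next. Along the first axis the H3D pools lay at 7.45 and 6.13, H1D at 5.39 and 1.06, H2D at 2.18 and 3.80 and NCD at -2.17 and -3.44, against -10.5 and -9.90 for Nor. H1D and H2D overlapped there and the other groups did not. The pools of a group were less alike in some groups than in others. The correlation between pools across members was 0.696 in H1D, 0.860 in H2D, 0.808 in H3D and 0.840 in NCD, against 0.767 in Nor, and 13.9% of members differed by more than 2-fold between the H1D pools and 16.5% between the Nor pools, against 5.06% in H2D.

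NCD against Nor compares DEN with PBS in chow-fed mice. Of the 237 members 2 rose and 1 fell, in all 1.27%, beside 1.74% of all noncoding transcripts tested (1.41% rose and 0.335% fell). LNC_000206 rose by 3.55 ± 0.17 on the log2(FPKM + 0.5) scale (limma standard error, adjusted p = 3.13e-05), with means of 77.2 ± 6.38 FPKM in NCD and 6.15 ± 0.603 in Nor (SD, n = 2 pools each). It passed in each of the 10 fits that left out a pool. LNC_000063 (XLOC_004767, lincRNA) was read at 3.23 and 1.79 FPKM in NCD and was listed at 0 in both Nor pools, and it rose (limma adjusted p = 0.0157). It passed in 7 of the 10 fits that left out a pool, and was lost without Nor replicate 1, Nor replicate 2 or NCD replicate 1 and when only NCD and Nor were fitted (adjusted p up to 0.135 over all settings). In the high-fat groups it was read at 2.89 and 1.44 FPKM in H1D, 0.528 and 0.892 in H2D, and then 0.778 and 0.272 in H3D.

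LNC_000139 (XLOC_012925, lincRNA) was the member that fell in NCD, with values below 0.001 FPKM in both NCD pools against 2.86 and 1.32 FPKM in Nor (log2 change -2.30 ± 0.42, limma adjusted p = 0.0332). It shares its locus with 3 other noncoding transcripts, among which the authors' software divided the reads. The sum over the locus was 4.69 and 3.12 FPKM in NCD, against 10.7 and 7.32 in Nor. That sum did not pass (log2 change -1.11 ± 0.38, limma adjusted p = 0.150). With equal mRNA sums or quantile scaling LNC_000139 did not pass, so that 2 members rose and 0 fell. It passed in 3 of 8 alternative settings, and most fits that left out a pool lost it. Pools did not overlap for 68 members higher in NCD (28.7%, beside 20.0% of all noncoding transcripts) and for 49 lower in NCD (20.7%, beside 28.5%). The count of 3 calls was 1 when NCD replicate 1 was left out, 5 when Nor replicate 2 was left out, and 2 without NCD replicate 2, either H2D replicate or either H3D replicate.

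Sums of cell type markers and of a list of oncofetal and tumour marker genes differed in the same comparison. The summed level of 7 cholangiocyte markers was 317 to 365 FPKM in NCD, against 14.1 to 20.9 in Nor. That of 8 genes listed as oncofetal or tumour markers was 430 to 438 FPKM in NCD, against 2.97 to 4.37 in Nor. The list held Afp, Gpc3, H19, Igf2, Cd24a, Ly6d, Akr1c18 and Scd2, of which Akr1c18 alone stood at 103 and 101 FPKM in NCD. The summed level of the 9 lymphocyte markers found was 23.6 to 29.0 FPKM in NCD, against 3.30 to 7.04 in Nor. Their part in the changes of the members was not tested. In pooled tissue, more cells of a type and more RNA per cell cannot be told apart.

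The mean of H1D, H2D and H3D against NCD averages the high-fat groups, so a member can pass by a change in 1 of them. Of the 237 members 1 rose and 5 fell, in all 2.53%, beside 2.14% of all noncoding transcripts tested (0.402% rose and 1.74% fell). LNC_000228 (XLOC_021867, lincRNA) rose, with 0.944 and 0.628 FPKM in H1D, 0.437 and 0.387 in H2D, and then 1.33 and 1.48 in H3D, against 0.177 and 0.192 in NCD (log2 change 0.93 ± 0.17, limma adjusted p = 0.0362). It was listed at 0 in both Nor pools. All 6 high-fat pools were above both NCD pools, and the H3D pools were the highest.

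LNC_000110 (XLOC_010879, lincRNA) fell the most in this comparison. It was read at 0.612 and 0.793 FPKM in H1D, 0.0842 and 0.00135 in H2D, and then 8.86e-06 and 0.995 in H3D, against 4.74 and 3.68 in NCD (log2 change -2.50 ± 0.36, limma adjusted p = 0.0208). In Nor it stood at 3.73 and 4.40 FPKM, within the range of the NCD pools, so that the low values were those of the high-fat groups. LNC_000238, whose pools are given above, fell by 1.92 on the log2 scale (standard error 0.23, limma adjusted p = 0.0125).

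LNC_000195 (XLOC_018418, antisense) had 0.713 and 0.844 FPKM in H1D, 0.480 and 0.164 in H2D, and then 0 and 0.160 in H3D, against 1.499 and 1.656 in NCD (log2 change -1.31 ± 0.20, limma adjusted p = 0.0237). LNC_000319 (XLOC_036671, lincRNA) had 0.230 and 0.170 FPKM in H1D, 0.159 and 0.171 in H2D, and then 0 and 0.117 in H3D, against 0.802 and 0.881 in NCD (-1.07 ± 0.17, limma adjusted p = 0.0239). LNC_000088 (XLOC_008247, lincRNA) had 3.34 and 2.87 FPKM in H1D, 2.69 and 2.73 in H2D, and then 1.52 and 2.00 in H3D, against 5.46 and 5.78 in NCD (-1.05 ± 0.16, limma adjusted p = 0.0239). In these 3 the H3D pools were the lowest, and the 6 high-fat pools did not overlap the NCD pools.

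All 6 high-fat pools lay above both NCD pools in 24 members (10.1%, beside 8.51% of all noncoding transcripts) and below them in 43 (18.1%, beside 12.5%). The count of 6 calls rests on the NCD pools, since it was 0 without NCD replicate 1 and 0 without NCD replicate 2 in limma (61 members had an unadjusted p under 0.05 in the fit of all pools). It was 1 without H1D replicate 1 or H2D replicate 2, 4 without H2D replicate 1, and 10 and 11 without Nor replicates 1 and 2. Quantile scaling gave 10 calls, 4 higher and 6 lower.

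Marker sums of other cells also differed between the high-fat groups and NCD. The summed level of 10 macrophage markers was 318 to 401 FPKM in H1D, 437 to 442 in H2D and 301 to 468 in H3D, against 201 to 259 in NCD, with no overlap. That of 10 neutrophil markers was 19.6 to 108 FPKM in H1D, 466 to 563 in H2D and 307 to 922 in H3D, against 11.4 to 30.2 in NCD, so that H2D and H3D lay above NCD and H1D overlapped it. That of 7 erythroid markers was 578 to 1106 FPKM in H1D, 1533 to 2283 in H2D and 1368 to 3982 in H3D, against 634 to 758 in NCD, with the same overlap. Their part in the calls of the high-fat mean was not tested.

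H3D against NCD, the comparison for sons of the F2 generation, held most of the calls. Of the 237 members 7 rose and 15 fell, in all 9.28%, beside 6.23% of all noncoding transcripts tested (1.34% rose and 4.89% fell). By class, 4.37% of annotated long noncoding RNAs and 9.83% of transcripts of uncertain coding potential were called. The 22 lay in 21 loci, the pools of H3D and NCD did not overlap in any of them, and 21 remained without the members that entered through 1 group. The falls ran from -1.03 to -2.96 and the rises from 1.01 to 2.46 on the log2(FPKM + 0.5) scale. A mean of 1 FPKM in NCD was reached by 13 of the 15 that fell, and a mean of 1 FPKM in H3D by 4 of the 7 that rose. In 7 of the 15 an H3D pool was below 0.001 FPKM, where the size of the log2 change depends on the 0.5 FPKM added.

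LNC_000238 fell by 2.96 on the log2 scale (standard error 0.29, limma adjusted p = 0.00306), to 1.18 ± 0.414 FPKM in H3D against 12.4 ± 1.67 in NCD (SD, n = 2 pools each). It was the member that passed in each of the 10 fits that left out a pool, with an adjusted p of 0.0556 in a fit of H3D and NCD alone. LNC_000110 fell by 2.44 (standard error 0.44, limma adjusted p = 0.0230), with its H3D pools far apart. LNC_000092 fell to 4.58 ± 0.0911 FPKM in H3D, against 15.2 ± 0.0489 in NCD (SD, n = 2 pools each; log2 change -1.63 ± 0.25, limma adjusted p = 0.0175).

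LNC_000133 (XLOC_012593, lincRNA), 1 of 3 transcripts in its locus, showed the largest rise. It was read at 2.92 and 1.70 FPKM in H3D, with both NCD pools below 0.001 FPKM (log2 change 2.46 ± 0.44, limma adjusted p = 0.0230). It also stood at 1.94 and 0.937 FPKM in H1D, at 0.634 and below 0.001 in H2D, and at 0.204 and below 0.001 in Nor. The authors' software divided reads among the transcripts of a locus, and the sum over this locus is not given here. LNC_000009 (XLOC_001352, lincRNA) was read at 0.924 and 3.38 FPKM in H3D, against 0.224 and 0.0397 in NCD (log2 change 1.91 ± 0.44, limma adjusted p = 0.0452), so that its H3D pools differed widely. It passed in 1 of the 10 fits that left out a pool, and its locus also holds 3 transcripts. LNC_000228 rose as well (1.48 ± 0.20, limma adjusted p = 0.0103), and its H3D pools were close to each other.

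**Figure D5:**
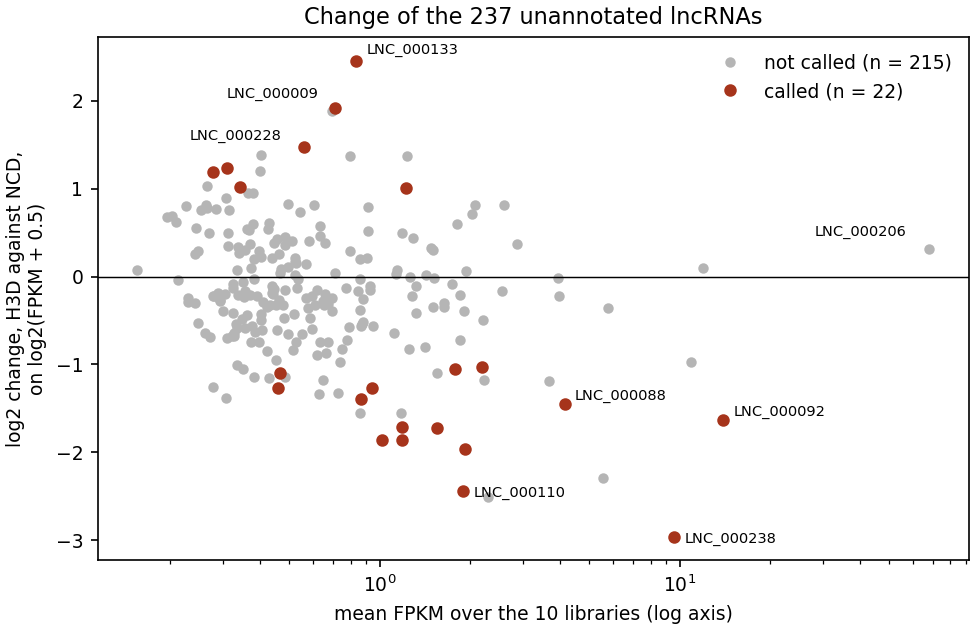
Log2 change between H3D and NCD on the log2(FPKM + 0.5) scale (y axis) against mean FPKM (x axis, log scale) for the 237 members; dark points are the 22 with adjusted p below 0.05. LNC_000238 (-2.96) and LNC_000133 (2.46) mark the ends of the called range, and LNC_000206 (0.32) was not called.

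LNC_000101 (XLOC_009867, lincRNA), named for its close H3D pools after its values were seen, was read at 0.731 and 0.750 FPKM in H3D, against 0.0514 and 0.0366 in NCD, and was listed at 0 in both Nor pools (H3D against NCD, log2 change 1.19 ± 0.25, limma adjusted p = 0.0350). Its close pools were the reason for the choice, so they lend the call no further support. LNC_000086 (XLOC_008081, lincRNA), also named after its values were seen, was read at 0.137 and 0.275 FPKM in H3D, against 1.04 and 1.34 in NCD (log2 change -1.26 ± 0.22, limma adjusted p = 0.0219). Over the 15 members that fell, the median log2 change was -1.63 in H3D against NCD, -0.85 in H1D against NCD and -0.70 in H2D against NCD. Over the 7 that rose it was 1.23, 0.50 and 0.67 in the same order. These 3 comparisons share the NCD pools, and the members were picked for the first of them.

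Pools of H3D and NCD did not overlap for 50 members higher in H3D (21.1%, beside 22.0% of all noncoding transcripts) and for 90 lower in H3D (38.0%, beside 29.9%). Against all 8 other libraries, both H3D pools were the lowest in 24 members (10.1%, beside 9.58%) and the highest in 12 (5.06%, beside 3.01%), of which 5 did not enter through 1 group. The count of 22 calls was 1 without NCD replicate 1, 1 without NCD replicate 2, 2 without H3D replicate 1, 4 without H3D replicate 2, 14 in each fit without 1 of the H1D or H2D pools, and 0 in a fit of these groups alone in limma (67 members had an unadjusted p under 0.05 in the fit of all pools). The split of 7 higher and 15 lower was 9 and 12 with equal mRNA sums and 9 and 13 with quantile scaling.

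The neutrophil, erythroid and macrophage sums given above for H3D moved with this comparison too, as did that of the cholangiocyte markers, at 380 to 531 FPKM in H3D, against 317 to 365 in NCD. These sums did not overlap between H3D and NCD. The part of these cells in the changes of the members was not tested. Stellate and fibroblast markers were lower in H3D, with 97.5 to 127 FPKM, against 129 to 136 in NCD, also with no overlap. Endothelial markers overlapped, with 116 to 127 FPKM in H3D, against 120 to 130 in NCD. The part of these lists was not tested either.

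H1D against NCD and H2D against NCD gave 0 called members in limma, beside 0.067% of all noncoding transcripts in each. An unadjusted p under 0.05 was reached by 40 members in H1D and 44 in H2D. For LNC_000238 the log2 change was -1.40 ± 0.29 in H1D (limma adjusted p = 0.174) and -1.41 ± 0.29 in H2D (adjusted p = 0.0979), both smaller than the -2.96 in H3D. For LNC_000110 it was -1.96 ± 0.44 in H1D (limma adjusted p = 0.174) and -3.11 ± 0.44 in H2D (adjusted p = 0.0756), the H2D value being larger than the -2.44 in H3D. Between the high-fat groups, limma called 0 members in H2D against H1D, 0 in H3D against H1D and 0 in H3D against H2D, with 27, 36 and 29 members at an unadjusted p under 0.05. The share of all noncoding transcripts called was 0.0%, 0.067% and 0.0% there. A difference between generations was therefore not detected for any member at this depth and number of pools, also for LNC_000238, whose log2 change was -1.56 ± 0.29 in H3D against H1D (adjusted p = 0.149) and -1.54 ± 0.29 in H3D against H2D (adjusted p = 0.131). Leaving out a pool gave 1 call at most in each of these comparisons.

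Some members were highest in a single high-fat group. LNC_000252 (XLOC_024858, antisense), chosen after its values were seen, was read at 7.04 and 8.39 FPKM in H2D, against 1.05 and 1.51 in H1D, 2.59 and 2.25 in H3D, 2.81 and 1.04 in NCD and 0.995 and 1.10 in Nor. Both H2D pools were above the other 8, and it passed the 5-group test (limma adjusted p = 0.0138). It is 1 of 3 transcripts in its locus, among which reads were divided. The sum over the locus also passed the 5-group test (limma adjusted p = 0.0160). That sum was not called in H2D against NCD (limma adjusted p = 0.162) or H2D against H1D (adjusted p = 0.0861). LNC_000192 (XLOC_018036, antisense), chosen in the same way, was highest in H1D, with 3.39 and 1.79 FPKM, against 1.03 and 1.10 in H2D, 0.978 and 0.849 in H3D, 0.902 and 0.865 in NCD and 0.288 and 0.157 in Nor (5-group test, limma adjusted p = 0.0150). Over all members, both H2D pools were the highest of the 10 libraries in 7 (2.95%, beside 2.34% of all noncoding transcripts) and both H1D pools in 6 (2.53%, beside 2.75%).

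Members shared loci. The 237 members came from 187 loci, of which 150 held 1 member and 37 held from 2 to 4, with 87 members among them. A further class of transcript, that of uncertain coding potential, stood in the loci of 38 members. In 5 loci more than 1 member passed the 5-group test, 11 members in all, and these are not independent since reads were divided among transcripts of a locus. When transcripts were summed per locus before the test, 58 of 187 loci with members passed the 5-group test (31.0%, beside 20.2% of all 1136 noncoding loci tested). In NCD against Nor 4 such loci passed (2.14%, beside 2.82%), in the high-fat mean against NCD 13 (6.95%, beside 4.75%) and in H3D against NCD 30 (16.0%, beside 8.36%). In H2D against NCD 1 passed (0.535%, beside 0.528%). In limma 0 passed in H1D against NCD (beside 0.088%), H2D against H1D (beside 0.0%), H3D against H1D (beside 0.176%) and H3D against H2D (beside 0.0%), where 34, 30, 37 and 35 loci in that order had an unadjusted p under 0.05. For locus XLOC_018418, which holds LNC_000194, LNC_000195 and LNC_000196, the sum was 2.33 and 4.47 FPKM in H1D, 1.16 and 1.71 in H2D, 0.779 and 0.704 in H3D and 3.87 and 4.29 in NCD, against 5.10 and 6.16 in Nor. The H2D and H3D pools were below the NCD pools and H1D pool 2 was not. The sum was lower in H3D than in NCD (log2 change -1.88 ± 0.28, limma adjusted p = 0.00960).

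XLOC_014834 and XLOC_004254 held the most members, 4 each. In XLOC_014834 nearly all of the signal was LNC_000160, described above, while LNC_000157, LNC_000158 and LNC_000159 reached at most 1.29 FPKM in any library. The locus sum was 14.4 and 10.3 FPKM in H1D, 9.31 and 8.40 in H2D, 9.83 and 8.00 in H3D and 17.6 and 16.8 in NCD, against 22.0 and 16.7 in Nor, and it was lower in H3D than in NCD (log2 change -0.92 ± 0.22, limma adjusted p = 0.0393). LNC_000160 alone did not pass there (log2 change -0.97 ± 0.24, limma adjusted p = 0.0537).

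In XLOC_004254 the members LNC_000045, LNC_000046, LNC_000048 and LNC_000049 varied between pools of the same group. LNC_000049, for example, was read at 0.127 and 1.05 FPKM in the NCD pools, and LNC_000046 at 0.834 and 0.132 FPKM in the H1D pools. The sum over the locus was steadier, between 1.57 and 2.77 FPKM in the 10 libraries, with no order by group.

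The median level was 0.639 FPKM for antisense members and 0.493 FPKM for lincRNA members. The 5-group test passed 9 of 42 antisense members (21.4%) and 32 of 195 lincRNA members (16.4%), and H3D against NCD called 6 (14.3%) and 16 (8.21%). Whether these shares differ was not tested.

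The group with the highest mean was Nor for 86 members (36.3%), H3D for 44 (18.6%), NCD for 39, H1D for 36 and H2D for 32. Nor was the lowest group for 78 (32.9%) and H3D for 73 (30.8%). Of all noncoding transcripts tested, 40.0% were highest in Nor, 25.9% lowest in Nor and 30.1% lowest in H3D. All 8 pools of DEN-treated mice were above both Nor pools in 49 members (20.7%, beside 12.2% of all noncoding transcripts), of which 17 had 0 in each of the Nor pools, and below them in 38 (16.0%, beside 16.7%). Without the 16 members that entered through 1 group, 43 of 221 were above and 32 below. Of all members, 87 reached 0.5 FPKM only in pools of DEN-treated mice. They entered through groups in which they were high, so the count above Nor is a description.

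As a description of pattern, the mRNA genes most like the leading members were sought among the 7118 genes that averaged 5 FPKM or more. For LNC_000206 these were Akr1c18, a steroid-metabolising reductase (Pearson r = 0.992 over the 10 libraries), and the kinase gene Pak1 (r = 0.991). Akr1c18 was read at 240 and 132 FPKM in H1D, 95.6 and 105 in H2D, 180 and 111 in H3D and 103 and 101 in NCD, against 0.0851 and 0.115 in Nor. For LNC_000092 they were Dcxr, an enzyme of carbonyl metabolism (r = 0.995), and plasma prekallikrein, Klkb1 (r = 0.993). For LNC_000238 they were Nit2 (r = 0.991) and the reductase gene Akr1c6 (r = 0.991). The number of genes that reached 0.95 was 78 for LNC_000206, 433 for LNC_000092 and 406 for LNC_000238, and all share the same 10 libraries in 5 groups.

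For LNC_000195 the most alike genes were Ttr, the thyroid hormone carrier transthyretin (r = 0.986), and Ugt2b36 (r = 0.985), and for LNC_000160 they were the connexin gene Gjb1 (r = 0.976) and Lrpap1 (r = 0.970). For LNC_000064 they were Xdh, xanthine dehydrogenase (r = 0.946), and Mylk (r = 0.909). LNC_000105, whose Nor pools lay far apart, was most like Gldc, the glycine decarboxylase gene (r = 0.955), and Ypel2 (r = 0.951). Both of these genes differed between the Nor pools in the same direction, Gldc with 22.4 and 57.2 FPKM and Ypel2 with 1.57 and 13.0 FPKM in Nor replicates 1 and 2. They were picked for their correlation over these same libraries, so the shared direction followed from that choice. A value of 0.95 was reached by 136 genes for LNC_000195, 6 for LNC_000160, 2 for LNC_000105 and 0 for LNC_000064.

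At the threshold itself, the second-highest library decides membership. LNC_000033 and LNC_000198 were just inside, each with 0.502 FPKM there, and LNC_000207 and LNC_000317 were just outside, each with 0.497 FPKM. LNC_000198 had 0.195 and 0.502 FPKM in H1D, 0.295 and 0.186 in H2D, 0.189 and 0.202 in H3D and 0.218 and 0.377 in NCD, against 0.594 and 0.127 in Nor.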

How the data were processed

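Long RNA libraries were made from total liver RNA after removal of ribosomal RNA and sequenced as paired reads of 125 nt, per the labels' protocols. The authors deposited FPKM per transcript in separate tables for mRNA, annotated lncRNA, unannotated lncRNA and transcripts of uncertain coding potential. Per the submitters' processing notes, the tools were Cufflinks and Cuffdiff (both 2.1.1), TopHat2 2.0.9, SAMtools 0.1.18, Bowtie2 2.0.6, GATK and Picard 1.96, with the build GRCm38. The role of each tool and the read totals are not given in the sources used here.

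The 3 noncoding tables were stacked, and the 1493 of 2030 transcripts with at least 0.5 FPKM in 2 libraries entered limma (3.58.1, under R 4.3.3) on the log2(FPKM + 0.5) scale. The model had 1 coefficient per group and a variance trend, which left 5 residual degrees of freedom. All tests are two-sided; an adjusted p below 0.05 (Benjamini-Hochberg over the 1493) was a call. Fold changes on this scale understate those of low transcripts. The fit was tested on simulated data. A fragment's FPKM worth was read from low values of transcripts alone in their locus.

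Named members are the 6 most abundant, the largest called changes without overlap of pools (up to 5 each way in NCD against Nor and the high-fat mean against NCD, up to 2 elsewhere), the 4 smallest p of the 5-group test, the 2 loci with most members, and 4 transcripts at the threshold. Members, lists and tests were chosen with earlier results of these data known. The settings varied were pseudocount, filter, scaling, features and groups fitted, replicate block and pools left out. Small RNA libraries were not used here.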

Additional observations from a re-analysis of the deposited data

How the results depend on the processing

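Counts are members called by limma, and no named change reversed its direction under any setting. A filter on a mean of at least 1 FPKM left 55 of the 237 members, and 21 of these were among the 41 that passed the 5-group test. All 21 passed again under that filter, so the smaller count there is not a loss of calls among the members kept. The 5-group count of 41 was 23 with a mean of at least 1 FPKM, and 21 to 39 when a pool was left out. NCD against Nor, with 3 calls, had 5 at a pseudocount of 0.1, 1 when only these groups were fitted, and 1 to 5 when a pool was left out. The high-fat mean against NCD, with 6 calls, had 2 at a pseudocount of 0.1, 10 after quantile scaling, 10 when only these groups were fitted, 13 with transcripts summed per locus, and 0 to 11 when a pool was left out. H3D against NCD, with 22 calls, had 0 when only these groups were fitted and 1 to 28 when a pool was left out. H2D against NCD, with 0 calls, had 1 at a pseudocount of 1, 1 for members averaging 1 FPKM or more, 1 in a fit with the mRNA transcripts, 1 with transcripts summed per locus, and 0 to 1 when a pool was left out. H1D against NCD, H2D against H1D and H3D against H1D each had 0 to 1 when a pool was left out, and H3D against H2D had 0. The cause of these differences was not tested, except that leaving out a pool or fitting groups alone leaves fewer libraries. The locus sums and the counts without members of 1 group were chosen after seeing the data. Equal mRNA sums moved the median log2 change of all noncoding transcripts between H3D and NCD to 0.08, against -0.04 as deposited, and between NCD and Nor to 0.04, against -0.08.

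Replicate numbers did not pair the libraries, since the deviations of same-numbered pools correlated between -0.07 and 0.10. With the replicate block, 29 members passed the 5-group test (27 of them also without it), 3 NCD against Nor (3 rose and 0 fell, 2 shared), 6 the high-fat mean against NCD (5 shared) and 15 H3D against NCD (14 shared), and 0 each H1D against NCD, H2D against NCD and the comparisons between high-fat groups. The block ended the calls of LNC_000139 in NCD against Nor (limma adjusted p = 0.0676), LNC_000228 in the high-fat mean against NCD (adjusted p = 0.0591) and LNC_000009 in H3D against NCD (adjusted p = 0.0626).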
